A study of Mus musculus with 4 samples.

Results

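The 2 arrays of feeder fibroblasts treated with 13 and with 40 ng/ml of FGF2 were taken as 2 measurements of a high-dose response and set against the 3 untreated control arrays. They are 2 of the 6 arrays of the series, which GEO lists as 4 samples with the 3 controls under 1, and were chosen by their labelled dose, not by a measured value. The 4 ng/ml array was left out. Cells were CF1 mouse embryonic fibroblasts whose division had been blocked with mitomycin C, the layer on which human embryonic stem cells are grown. All groups shared the gelatine coating, a density of 55000 cells per square centimetre, and 24 h in basic stem cell medium that held Serum Replacement. The 13 ng/ml group and the 40 ng/ml group had 1 array each, and the control group, with 0 ng/ml, had 3 arrays labelled as biological replicates. From each, 300 ng of RNA was amplified for 6 h and read on an Illumina bead array in one colour, with 46116 probes.

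FGF2, or basic fibroblast growth factor, binds FGF receptors together with heparan sulfate on the cell surface and signals through Ras and the ERK kinases and through phosphoinositide 3-kinase. The pathway switches on its own inhibitors, so feedback genes are among its usual targets. Embryonic fibroblasts deposit a matrix rich in collagen and secrete growth factors of the TGF-beta, IGF and other families, which is what they are used for as a feeder layer.

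The arrays had median signals of 102.5 to 113.6 units, and 11485 to 11635 probes were detected on the high-dose arrays, against 11310 to 11698 on the controls. Of the 12246 probes tested, 3588 stood for genes with a symbol, which was inferred from the number in the probe's identifier. Log2 signals correlated across these 12246 probes at 0.9979 between the 13 and 40 ng/ml arrays, at 0.9461 to 0.9493 between a high-dose and a control array, and at 0.9951 to 0.9972 between controls. All 5 fibroblast markers with a named probe (Col1a1, Col1a2, Col3a1, Dcn and S100a4) were detected on all 5 arrays, with a summed level of 18510 to 20080 at the high doses and 31480 to 35670 in the controls. The 5 named markers of pluripotent cells, the 2 of endothelium and the 1 of adipocytes were undetected on all 5 arrays. Of 6 leukocyte markers Lyz2 was the one detected, of 4 epithelial markers Krt18 and Cldn4, and of 6 neural markers Nefm. Krt18 and Nefm were detected on both high-dose arrays and on no control, with summed levels of 608.7 to 618.5 at the high doses and 588.5 to 594.4 in the controls for the epithelial list and of 889.5 to 892.8 and 846.2 to 858.9 for the neural list. The leukocyte list summed to 927.1 to 936.3 at the high doses and 985.3 to 1002 in the controls. The part of these in the results was not tested. No skeletal muscle marker had a named probe. In such bulk samples fewer cells of a type and less RNA per cell cannot be told apart.

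At the high doses most tested genes of prostaglandin and tetrahydrobiopterin synthesis, ribosome assembly and protein folding were higher. Most tested genes of collagen, its processing enzymes and antigen presentation were lower. Of the genes of ERK feedback and its targets 7 of 12 were higher, and 4 of these 7 were dim. These gene lists were chosen with earlier results of these data known. With a threshold of 0.05 on the adjusted p (limma, two-sided, Benjamini-Hochberg over all probes), 5039 of 12246 probes passed, which is 41.1%. Of these, 2625 were higher (21.4%) and 2414 lower (19.7%) at the high doses. A change of more than 2-fold was seen for 279 probes that were higher and 318 that were lower, together 4.88% of those tested. Among genes with a symbol, 1545 of 3588 passed (43.1%), 795 of them higher (22.2%) and 750 lower (20.9%). The median change of all named genes was 0.00 on the log2 scale. Quantile normalisation gives all arrays the same distribution, so a median near 0 is largely set by the processing. The 2 high-dose values and the 3 control values did not overlap for 2393 of the 3588 named genes (66.7%). With such shares, a gene group that passes in about 4 of 10 members is at the level of the array as a whole.

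Each log2 change below is the mean of the 13 and 40 ng/ml arrays minus the mean of the 3 controls, with the standard error of the fit (n = 2 against n = 3). Levels are log2 normalised signals, on which a probe at the detection limit reads about 7.26. The main background correction used control estimates with a standard deviation of 224 to 263 units per array, against 11.7 to 13 with robust estimates. With the wide spread, the main correction compresses values near that limit. For dim genes a value with robust control estimates, an alternative that compresses less, is therefore added where it moves the fold by more than 1.5 times. Of the genes named here, that holds also for those given only by a bound ("at least"), which sets the detected side against the detection limit. Bounds are on the main scale, where Itga6 reads at least 1.37-fold higher, against 2.90 on the log2 scale with robust control estimates. Each dose had 1 array, so calls lost without either one, and counts that depend on either one, are named. Calls gained when one was left out are not named as such. Without either one fewer probes were called over the array as a whole, so a lower list count is not particular to that list.

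The largest rises included regulators that act on receptor and Ras signalling. The 20 largest rises and falls were picked among genes whose high-dose and control arrays did not overlap, so that trait is no separate support. Errfi1 encodes a feedback inhibitor of the EGF receptor family and is a known target of ERK. Its level was 12.99 at 13 ng/ml and 13.11 at 40 ng/ml, against 8.67, 8.81 and 8.78 in the controls. Both high-dose arrays stood far above all 3 controls, a rise of 4.29 ± 0.06 (19.6-fold, adjusted p = 1.1e-05), or 3.60 without background correction. Etv1, an ETS transcription factor induced by FGF in many tissues, had levels of 9.51 and 9.72 at the 2 doses, against 7.47, 7.55 and 7.51 in the controls. The groups did not overlap, and it rose by 2.10 ± 0.07 (4.29-fold). Rasa1, which switches Ras off, had levels of 11.36 and 11.37, against 8.93, 8.99 and 9.06. It rose 5.17-fold with no overlap. Ccnd1, the cyclin that couples growth factor signals to the cell cycle, measured 14.01 and 14.15, against 12.05, 12.09 and 12.36 in the controls, and rose 3.77-fold. Lrig1, another inhibitor of EGF receptor family members, rose 4.04-fold, and Socs2, an inhibitor of cytokine and growth hormone signalling, rose by 2.45 ± 0.14 (5.45-fold, and 3.09 on the log2 scale with robust control estimates).

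The list of genes induced by ERK or feeding back on it had 42 members. A named probe existed for 17, and 12 were detected on at least 2 arrays and tested. Of the 12, 7 rose and 2 fell (75% called, against 43.1% of all named genes). Their median change was 0.175 (1.04 with robust control estimates), against 0.00 for all named genes. Besides Errfi1, Etv1 and Ccnd1, those that rose were Spred1 (0.27), an inhibitor of Ras activation, Dusp14 (0.25), a phosphatase, Egr2 (0.17), an early response factor, and Ereg (0.18), a ligand of the EGF receptor. These 4 were dim. With robust control estimates they read 1.67, 1.32, 0.76 and 1.80. Ereg was undetected on all 3 controls and was at least 1.07-fold higher at the high doses. Leaving out the 13 ng/ml array (adjusted p = 0.105) or the 40 ng/ml array (0.056) ended its call, and leaving out the 13 ng/ml array that of Egr2 (0.068). With detection required on all 5 arrays, 4 list members rose. The other direction was taken by Cdc42ep3, which fell by 1.08 ± 0.06, and by the ephrin receptor Epha4, which fell by 0.14 (-1.004 with robust control estimates) and was detected on 1 of the 2 high-dose arrays. The Epha4 call ended in 5 alternatives, among them leaving out either high-dose array (adjusted p = 0.106 and 0.189). Junb (-0.21, adjusted p = 0.067), Fosl2 (-0.06) and Dusp7 (-0.01) did not pass.

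Rasa2, a relative of Rasa1, rose by 0.60 ± 0.04 (1.28 with robust control estimates), and the small GTPase Rhob by 0.85 ± 0.11. Rnd3, an atypical small GTPase, fell by 1.44 ± 0.09. Rgs4, which quenches G protein signals, had levels of 7.20 and 7.23, below detection on both high-dose arrays, and of 8.10, 7.84 and 7.89 in the controls, where it was detected on all 3. It was at least 1.61-fold lower at the high doses (adjusted p = 0.0032).

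The receptors and carriers of FGF itself moved in both directions. Of 11 tested genes for FGF receptors, ligands and heparan sulfate carriers, 2 rose and 4 fell (54.5% called, against 43.1% of all named genes). The receptor probe of Fgfr1 lay at the detection limit, with 7.23 and 7.27 against 7.26, 7.25 and 7.27. Sulf1 and Sulf2, which remove sulfate groups from heparan sulfate, fell 2.84-fold and 2.11-fold. Sulf1 measured 8.89 at 13 ng/ml and 8.81 at 40 ng/ml, against 10.36, 10.35 and 10.37 in the controls. The proteoglycan Sdc2 fell by 0.65 ± 0.08, whereas Gpc1, a glypican that carries heparan sulfate, rose by 0.73 ± 0.11 and Ndst1, an enzyme of heparan sulfate sulfation, by 0.65 ± 0.08.

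The enzymes of prostaglandin and tetrahydrobiopterin synthesis had the highest median of all lists, 1.15, and 6 of 8 tested members rose while 1 fell. This joint list was drawn up with earlier results of these data known, so its rank is no separate support. Gch1, the first enzyme of tetrahydrobiopterin synthesis, measured 11.25 at 13 ng/ml and 11.51 at 40 ng/ml, against 7.40, 7.39 and 7.56 in the controls. Its controls lay just above the detection limit, and it rose by 3.93 ± 0.10 (15.3-fold). Ptgs1, the constitutive cyclooxygenase, had 10.23 and 9.99, against 7.49, 7.54 and 7.41. It rose by 2.63 ± 0.08 (6.19-fold). Ptgs2, the inducible cyclooxygenase, rose by 1.14 ± 0.11, and Ptges, which makes prostaglandin E2, by 1.17 ± 0.10. With robust control estimates these were 1.91 and 1.83. The order of the doses differed between them, since Ptgs2 measured 8.77 at 13 and 8.42 at 40 ng/ml and Ptges 8.51 and 8.82, against 7.44 to 7.53 over the controls of both. Ptgis, the prostacyclin synthase, rose by 1.34 ± 0.04. Hpgd, which inactivates prostaglandins, was undetected at both high doses (7.14 and 7.16) and detected in all controls (7.55, 7.69 and 7.55), at least 1.26-fold lower. Acsl4, which activates arachidonic acid, the precursor of prostaglandins, was not on the list. It was among the 20 largest rises (3.60-fold).

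Other large rises were secreted or surface proteins and enzymes of redox balance. Spp1 encodes osteopontin, a secreted ligand of integrins. It measured 14.52 and 14.49 at the high doses, against 11.96, 12.04 and 11.95 in the controls, where it was already bright, a rise of 2.52 ± 0.04 (5.73-fold). Il1rl1, the receptor of interleukin 33, rose 3.59-fold, with 13.44 and 13.53 against 11.65, 11.58 and 11.69. The polyamine-degrading enzyme Sat1 rose 4.47-fold, and Gap43, known from growing axons, rose 3.68-fold. Tmcc3 (5.22-fold) and Sh3bgrl2 (3.73-fold) complete the rises apart from the redox genes given later and 3 genes of families with close copies. These 3 were Hmga2-ps1, a pseudogene copy of the chromatin protein gene Hmga2 (12.5-fold), Trbv31, a T cell receptor segment (10.3-fold), and Gzme, a granzyme (3.32 on the log2 scale). The T cell marker Cd3e and the leukocyte marker Ptprc were undetected on all 5 arrays. Which relative these 3 probes measured was not tested.

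**Figure D1:**
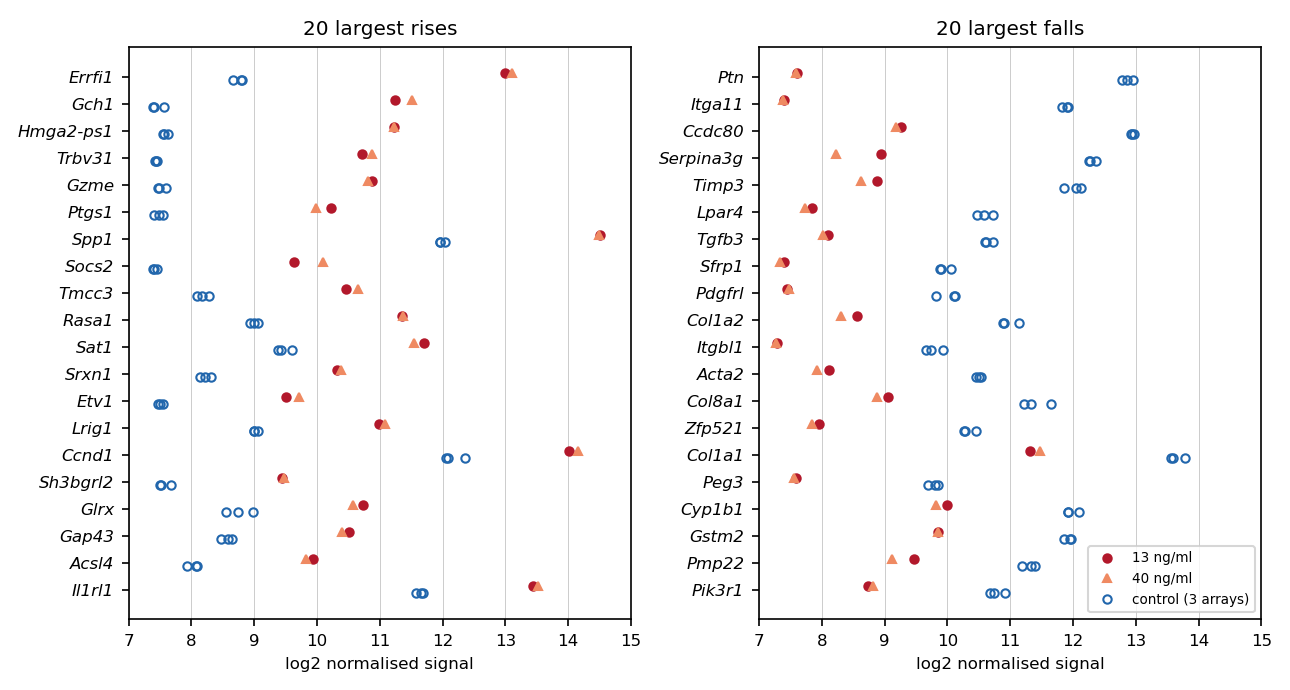
Log2 normalised signal on each array for the 20 genes with the largest rise (left) and the 20 with the largest fall (right) among named genes that passed the threshold and were detected on all 5 arrays; filled symbols are the 13 and 40 ng/ml arrays and open circles the 3 controls. The genes were also picked for having no overlap between the high-dose and control arrays. That both high-dose symbols lie on the same side of all 3 controls follows from this choice. In every row the high-dose symbols lie closer to each other than to any control.

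Collagen chains fell almost as a whole. Of 23 genes on the list 14 had a named probe and 10 were tested, of which 9 fell and 1 rose, with a median of -1.52. Col1a1 and Col1a2 encode the chains of type I collagen, the main fibre of connective tissue. Col1a1 measured 11.31 at 13 ng/ml and 11.47 at 40 ng/ml, against 13.57, 13.60 and 13.78 in the controls. Col1a2 measured 8.56 and 8.30, against 10.89, 11.14 and 10.91. In both genes all controls stood more than 2 log2 units above either high-dose array. The changes were -2.26 ± 0.09 for Col1a1 (4.78-fold lower) and -2.55 ± 0.11 for Col1a2 (5.85-fold lower, or -1.95 without background correction). The basement membrane chain Col4a5 fell by 1.74 ± 0.10, Col8a1 by 2.43 ± 0.14 and Col5a1, a regulator of fibre width, by 1.35 ± 0.06. Col6a1 of the beaded filaments fell by 0.94 ± 0.06. Col8a2 was undetected at both high doses and at least 1.07-fold lower, a call lost when the 13 ng/ml array was left out (adjusted p = 0.051). The SMAD motif, searched as CAGACA on both strands, was in 5 of the 9 collagen promoters available (55.6%), against 14.8% of those of tested genes and 21% of all promoters. It was in 29.2% of promoters of genes called over 2-fold lower and 15.8% of those called over 2-fold higher. For the 20 largest rises it was in 3 of the 15 available (20%). For the 20 largest falls, which include Col1a2 and Col8a1, it was in 6 of 14 (42.9%). Col7a1, which anchors epithelium to connective tissue, rose by 0.30 ± 0.09 (adjusted p = 0.048), and this call ended in 9 alternatives, among them robust control estimates (adjusted p = 0.092), scaling to the same median (0.34), and leaving out the 13 ng/ml array (0.221), the 40 ng/ml array (0.084) or control replicate 1 (0.119) or 2 (0.082).

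The enzymes and chaperones that process collagen fell with it, with 8 of 10 tested members lower, none higher and a median of -0.57. Adamts2, which trims procollagen, measured 8.33 and 8.20, against 9.87, 10.22 and 9.96, and fell by 1.75 ± 0.12. The crosslinking enzyme Loxl2 fell by 1.56 ± 0.10, the procollagen peptidase enhancer Pcolce by 1.07 ± 0.07 and the collagen chaperone Serpinh1 by 0.74 ± 0.05. Loxl1 (-0.37, adjusted p = 0.063) and Sec23a, of the coat of secretory vesicles (0.01), did not pass.

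Among other matrix proteins 10 of 14 fell and 2 rose (85.7% called, against 43.1% of all named genes). Fewer fell without the 13 or the 40 ng/ml array. Ccdc80, a secreted matrix protein, measured 9.27 and 9.18, against 12.97, 12.93 and 12.95, a fall of 3.73 ± 0.04 (13.3-fold). Thbs2, an antiangiogenic matrix protein, fell by 1.52 ± 0.04, the elastic fibre component Fbln1 by 1.60 ± 0.07 and the proteoglycan Vcan by 1.47 ± 0.13. Elastin itself, Eln, changed by -1.09 ± 0.19, or -2.74 with robust control estimates, and its call ended without the 13 or the 40 ng/ml array (adjusted p = 0.063 and 0.062). Ccn1, a matricellular protein, rose by 0.71 ± 0.10 beside Spp1. The small proteoglycan Dcn, whose levels were 13.14 and 13.18 against 12.85, 13.00 and 13.08, did not pass (0.18, adjusted p = 0.12).

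Proteases of the matrix and their inhibitors were lower in 6 of 10 and higher in 1 (70% called, against 43.1% of all named genes). Timp3, an inhibitor of metalloproteases that binds to the matrix, measured 8.88 and 8.63, against 12.05, 11.85 and 12.13. It changed by -3.25 ± 0.11 (9.55-fold lower), or by -2.62 without background correction. Adamts5 and Adamts4, which cleave aggrecan and versican, fell by 2.08 ± 0.03 and 1.29 ± 0.06. Adamts5 was detected on 1 of the 2 high-dose arrays and read -3.91 with robust control estimates. Adam19, a membrane protease, rose by 0.84 ± 0.05.

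Adhesion genes went both ways, with 5 of 14 higher and 5 lower (71.4% called, against 43.1% of all named genes). Fewer were lower without the 40 ng/ml array. Itga11, the subunit of an integrin that binds fibrillar collagen, measured 7.40 at 13 ng/ml and 7.38 at 40 ng/ml, against 11.83, 11.93 and 11.90 in the controls. It stood near the detection limit at both high doses and was 22.6-fold lower (adjusted p = 3.4e-06). Itgbl1, which resembles an integrin subunit, fell 5.66-fold (-3.91 on the log2 scale with robust control estimates). The leukocyte ligand Vcam1 fell by 1.41 ± 0.05 on the log2 scale. Itga6, part of a laminin receptor, was detected at 13 and 40 ng/ml (7.73 and 7.70) and undetected on the 3 controls (7.19, 7.18 and 7.19), at least 1.37-fold higher. Alcam, a cell adhesion molecule, rose by 1.28 ± 0.08, and Zyx, of focal adhesions, by 0.74 ± 0.06.

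Of the contractile apparatus, smooth muscle actin and a myosin kinase fell while several general actin regulators rose. Acta2, smooth muscle actin and a marker of myofibroblasts, measured 8.12 and 7.93, against 10.54, 10.46 and 10.51, and fell by 2.48 ± 0.06 (5.56-fold). Mylk, the kinase that activates myosin, fell by 1.72 ± 0.05 and was detected on 1 of the 2 high-dose arrays (-3.40 with robust control estimates). Of 18 tested members of this list 8 rose and 3 fell (61.1% called, against 43.1% of all named genes), with a median of 0.14. Those that rose were led by Cap1 (0.98 ± 0.07), Tpm3 (0.53 ± 0.05) and Tpm4 (0.41 ± 0.05), an actin-binding protein and 2 tropomyosins. With scaling to the same median 5 rose.

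Of the TGF-beta family, the ligands Tgfb3 and Tgfb2 fell and latent binding proteins split. On this list 56.2% of tested members were called, against 43.1% of all named genes. Tgfb3 measured 8.10 and 8.02, against 10.73, 10.61 and 10.60, and fell by 2.59 ± 0.05 (6.01-fold). Tgfb2 fell by 1.75 ± 0.03, or -2.48 with robust control estimates. Ltbp2, of the proteins that store latent TGF-beta or bind fibrillin, fell by 1.03 ± 0.03, while Ltbp1 rose by 1.32 ± 0.15. The receptors Tgfbr1 (-0.19, adjusted p = 0.22), Tgfbr3 (-0.31), Acvr1 (-0.23) and Bmpr1a (-0.21) did not pass. Without the 13 ng/ml array the change of Tgfbr1 was -0.36. Over the 16 tested members 2 rose and 7 fell, with a median of -0.22, and 4 fell without the 40 ng/ml array.

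Secreted factors of other families included Ptn and Ptx3, which were among the genes with the steepest falls. Ptn, the growth factor pleiotrophin, measured 7.61 at 13 ng/ml and 7.59 at 40 ng/ml, against 12.86, 12.79 and 12.96 in the controls. The change was -5.27 ± 0.06 (38.6-fold lower, adjusted p = 5.3e-06), or -5.18 with robust control estimates. Ptx3, a pentraxin of innate immunity, measured 7.27 and 7.23, against 11.64, 11.79 and 11.52. Its high-dose levels lay at the detection limit, with detection on 1 of the 2 arrays, so the size of its fall depends on the background correction, and it read -4.40, or -5.82 with robust control estimates. The chemokines moved apart. Ccl2, which attracts monocytes, rose by 1.64 ± 0.07, with 11.75 and 11.87 against 10.28, 10.14 and 10.09, whereas the neutrophil attractant Cxcl1 fell by 1.54 ± 0.08 and Cxcl14 by 1.28 ± 0.08 (-2.14 with robust control estimates). Angptl4, a lipase inhibitor, rose by 0.89 ± 0.07, and Pdgfa, a platelet-derived growth factor chain, by 0.74 ± 0.11.

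In the IGF axis the binding protein Igfbp3 fell by 1.39 ± 0.14 (-2.49 with robust control estimates), while Igfbp4 rose by 0.97 ± 0.16, a call that ended without the 13 or the 40 ng/ml array (adjusted p = 0.062 and 0.058). Of 6 tested genes of this axis 4 fell and 1 rose (83.3% called, against 43.1% of all named genes). Fewer fell without either high-dose array. The ligand Igf1 was undetected at both high doses (7.16 and 7.13) and detected on all controls (7.56, 7.57 and 7.50), at least 1.22-fold lower. In the Wnt pathway the antagonist Sfrp1 fell by 2.58 ± 0.06 (-3.42 with robust control estimates), and Wls, which carries Wnt proteins to the surface, by 0.81 ± 0.04. The ligand Wnt5a rose by 0.73 ± 0.06. Sfrp1 measured 7.39 and 7.34, against 9.90, 10.06 and 9.88. Of the 3 tested Notch pathway genes 0 passed in limma.

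The remaining large falls were of receptors and intracellular proteins. Lpar4, a lysophosphatidic acid receptor, fell by 2.80 ± 0.08. Pdgfrl, which resembles a PDGF receptor, fell by 2.56 ± 0.10. Pik3r1, the regulatory subunit of phosphoinositide 3-kinase, fell 4.01-fold, with 8.74 and 8.82 against 10.75, 10.92 and 10.69. The cytochrome Cyp1b1 fell 4.22-fold, the imprinted gene Peg3 4.62-fold, the zinc finger gene Zfp521 5.38-fold and the myelin protein gene Pmp22 4.04-fold. Serpina3g, of a family of serine protease inhibitors with close copies, changed by -3.71 ± 0.21, or -3.03 without background correction, and its 2 doses are compared further on.

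**Figure D2:**
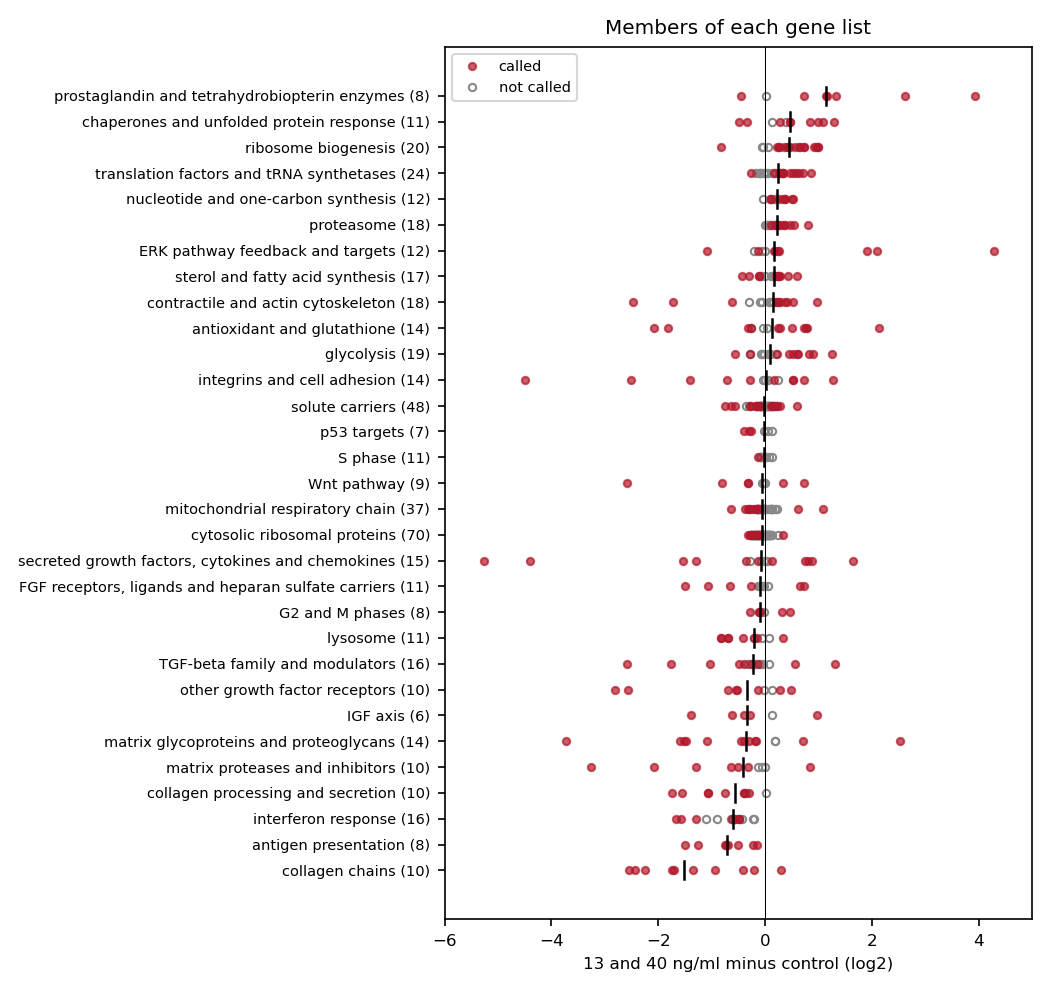
Log2 change at 13 and 40 ng/ml against control of each tested member of the gene lists shown, which have 6 or more tested, the number tested in brackets; filled points passed the threshold, open points did not, and black bars are list medians. Collagen chains have the lowest median, -1.52 (with robust control estimates, not plotted, the interferon response is lower, at -1.96 against -1.79), and prostaglandin and tetrahydrobiopterin enzymes the highest, 1.15. The lists were chosen with earlier results of these data known.

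Antigen presentation genes were lower without exception among those tested, since 8 of 8 fell, with a median of -0.72, and 5 passed without the 13 or the 40 ng/ml array. B2m, the light chain of class I molecules, measured 13.34 at both high doses, against 13.87, 13.88 and 13.80. The fall of 0.51 ± 0.03 was small and the groups did not overlap. H2-K1, a class I heavy chain with close relatives that the probe could share, measured 8.73 and 8.62, against 9.91, 10.29 and 10.35, and fell by 1.51 ± 0.15. Psmb10 of the immunoproteasome fell by 1.25 ± 0.17, the proteasome activator Psme1 by 0.74 ± 0.06, and H2-T23, another class I chain, by 0.75 ± 0.06. Psmb8, also of the immunoproteasome, was undetected at both high doses and at least 1.15-fold lower, a call that ended without the 13 or the 40 ng/ml array (adjusted p = 0.107 and 0.106), control replicate 1 (0.072) or the detection filter (0.055).

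All 16 tested interferon response genes were lower on both high-dose arrays than on every control. Of all named genes, 66.7% had groups that did not overlap, in either direction. Of the 16, 7 passed the threshold (43.8%, against 43.1% of all named genes), with a median of -0.59, or -1.96 with robust control estimates. The mean level over the 16 was 8.35 at 13 ng/ml and 8.37 at 40 ng/ml, against 8.98, 8.92 and 9.41 in the controls. Control replicate 3 stood above the other controls. Irf9, a transcription factor of the interferon response, changed by -1.29 ± 0.19 (-2.34 with robust control estimates) and Parp9 by -1.57 ± 0.30 (-2.24). The call of Parp9 was lost when the 13 ng/ml array was left out (adjusted p = 0.074) or the 40 ng/ml array (0.078). Without control replicate 3, 15 of 16 passed, and without the 13 ng/ml array 4 did. With robust control estimates 16 of 16 passed. Oas1a, a sensor of double-stranded RNA, had 7.23 and 7.20 on the high-dose arrays, where it was undetected, and 7.67, 7.64 and 8.19 on the controls. It was at least 1.49-fold lower, with an adjusted p of 0.05 that did not pass. Trim30a (at least 1.48-fold, adjusted p = 0.056), Ifit3 (at least 1.35-fold, 0.11) and Igtp (-1.10, 0.051) did not pass either. Igtp was detected on 1 of the 2 high-dose arrays and read -2.90 with robust control estimates.

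Promoters of B2m and Oas1a are shown because they hold a motif known from interferon-induced genes. It was 1 of 5 motifs searched in the promoters of named genes. The CArG box of serum response, also searched, was in 0 of the 15 promoters available for the 20 largest rises. For the 20 largest falls it was in 0 of 14. The interferon-stimulated response element was searched as 2 GAAA blocks with any 2 bases between them, on both strands, in the 300 bases around each gene's start taken from RefSeq (GRCm38.p6). It was found in 7 of the 13 interferon response genes with a promoter sequence (53.8%) and in 3 of 8 antigen presentation genes (37.5%). It was found in 2.73% of the 2890 tested genes with a promoter sequence and in 3.49% of all 27025 promoters. A match describes these letters only. Capitals mark the matches, and in Oas1a 2 matches overlap. The B2m promoter is chr2:122147437-122147736 on the plus strand, and that of Oas1a is chr5:120907476-120907775 on the minus strand.
B2m: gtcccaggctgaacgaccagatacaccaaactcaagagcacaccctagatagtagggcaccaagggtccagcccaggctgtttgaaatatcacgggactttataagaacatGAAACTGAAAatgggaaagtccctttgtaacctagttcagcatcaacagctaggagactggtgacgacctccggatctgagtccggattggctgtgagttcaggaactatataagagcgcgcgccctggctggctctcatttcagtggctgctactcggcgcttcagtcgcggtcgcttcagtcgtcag
Oas1a: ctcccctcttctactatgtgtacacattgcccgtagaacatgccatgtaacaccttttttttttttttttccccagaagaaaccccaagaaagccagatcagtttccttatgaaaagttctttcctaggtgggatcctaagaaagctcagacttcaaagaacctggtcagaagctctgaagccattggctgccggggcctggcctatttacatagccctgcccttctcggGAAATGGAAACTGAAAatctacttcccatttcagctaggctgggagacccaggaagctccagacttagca

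Genes of ribosome assembly rose as a group, with 16 of 20 higher, 1 lower and a median of 0.45. Fbl, which methylates ribosomal RNA, measured 10.90 and 11.12, against 10.10, 10.02 and 9.93, with no overlap (adjusted p = 0.0013). Ebna1bp2, a nucleolar assembly factor, measured 9.12 and 9.21, against 8.22, 8.10 and 8.18, and Nop58 and Nop56, partners of Fbl, rose by 0.96 ± 0.06 and 0.72 ± 0.10. Tcof1, of ribosomal RNA transcription, fell by 0.83 ± 0.14, a call lost when the 13 ng/ml array was left out (adjusted p = 0.059). The ETS motif, searched as CCGGAAGT on both strands, was in 5 of 17 promoters of this group (29.4%) and in 9.1% of those of all tested genes and 4% of all promoters. It was in 0 of the 15 promoters available for the 20 largest rises. For genes called over 2-fold higher it was in 2 of 57 (3.51%).

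The cytosolic ribosomal proteins themselves gave 1 rise and 11 falls among 70, or 17.1% called, which is below the 43.1% of all named genes. Their changes lay between -0.32 and 0.33 with a median of -0.06. With robust control estimates 1 of them fell, without control replicate 1 or 2 there were 5 and 7 falls, and without the 13 or the 40 ng/ml array 6 and 5. Translation factors and tRNA synthetases had 11 of 24 higher and 1 lower, with a median of 0.24, and 6 were higher without the 13 ng/ml array. The share of these 24 that was called was 50%, against 43.1% of all named genes. Among the higher ones were Eif5 (0.86 ± 0.09) and Eif5a (0.71 ± 0.03), factors of initiation and elongation.

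Chaperones rose in 7 of 11 and fell in 2 (81.8% called, against 43.1% of all named genes). Hsp90aa1, the inducible form of the chaperone HSP90, rose by 1.28 ± 0.18, with 11.09 at 13 ng/ml and 10.73 at 40 ng/ml against 9.66, 9.85 and 9.38. The mitochondrial chaperones Hspa9 and Hspd1 rose by 1.09 ± 0.10 and 0.99 ± 0.12. Xbp1 and Sel1l, of the unfolded protein response and protein disposal in the endoplasmic reticulum, fell by 0.34 ± 0.06 and 0.48 ± 0.06, and Hspa5, the chaperone of that compartment, did not pass (0.13, adjusted p = 0.22). Hspa5 changed by 0.24 at 13 ng/ml and by 0.01 at 40 ng/ml. Of 18 proteasome genes 10 rose and none fell, led by Psmd8 (0.80 ± 0.07), and scaling to the same median gave 4 rises and leaving out the 13 ng/ml array 6. The called share of the proteasome genes was 55.6%, against 43.1% of all named genes. Of 12 genes of nucleotide and one-carbon synthesis 8 rose and none fell (66.7% called), with Hprt, of purine salvage, the largest (0.53 ± 0.05). That count was 5 with scaling to the same median, and 4 and 3 without the 13 and the 40 ng/ml array.

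In glycolysis 8 of 19 genes rose and 2 fell (52.6% called, against 43.1% of all named genes). Eno1, an enolase, measured 11.21 and 11.23, against 9.95, 9.76 and 10.17, and rose by 1.26 ± 0.12. Pkm (0.90 ± 0.04), Pgk1 (0.82 ± 0.05), Ldha (0.62 ± 0.06) and Aldoa (0.60 ± 0.03), all of the lower or middle steps, also rose. The neuronal enolase gene Eno2 fell by 0.57 ± 0.06. The respiratory chain gave 2 rises, of the cytochromes Cycs (1.09 ± 0.06) and Cyc1 (0.62 ± 0.09), and 8 falls of 37. That is 27% called, against 43.1% of all named genes. Every leave-out lowered the falls, to 4 and 2 without the 13 and the 40 ng/ml array and to 4, 5 and 5 without control replicates 1, 2 and 3. Lysosomal genes fell in 7 of 11 and rose in 1 (72.7% called, against 43.1% of all named genes). Fewer fell without the 13 or the 40 ng/ml array. The sialidase Neu1 fell by 0.83 ± 0.04 and the membrane protein Lamp2 by 0.68 ± 0.07, while the protease Ctsb rose by 0.33 ± 0.05.

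Redox genes went both ways. Of 14 tested 7 rose and 4 fell (78.6% called, against 43.1% of all named genes). Fewer fell without the 13 ng/ml array. Srxn1, sulfiredoxin, which restores overoxidised peroxiredoxins, measured 10.32 and 10.38, against 8.31, 8.14 and 8.21, and rose by 2.13 ± 0.06 (4.37-fold). The peroxiredoxins Prdx6, Prdx1 and Prdx5 rose by 0.78 ± 0.06, 0.72 ± 0.03 and 0.50 ± 0.07. Glrx, a glutaredoxin that was not on the list, rose 3.72-fold. The glutathione transferases Gstm2 and Gstm1, which have close relatives, fell by 2.07 ± 0.04 and 1.82 ± 0.13, and Gstp1 of another class rose by 0.77 ± 0.03. The AP-1 motif, searched as TGANTCA (its own reverse complement), was found in 2 of the 15 promoters available for the 20 largest rises (13.3%), those of Srxn1 and Glrx. For the 20 largest falls it was in 0 of 14. It was in 4.71% of promoters of tested genes and 7.93% of all. Among genes called over 2-fold it was in 10.5% of promoters of those that were higher and 8.33% of those that were lower, and it was in 2 of 13 interferon response promoters (15.4%), so it was not limited to genes that rose. The Srxn1 promoter, chr2:152105274-152105573 on the plus strand, is shown because it holds 2 matches, in capitals, starting 102 and 45 bases before the gene's start.
Srxn1: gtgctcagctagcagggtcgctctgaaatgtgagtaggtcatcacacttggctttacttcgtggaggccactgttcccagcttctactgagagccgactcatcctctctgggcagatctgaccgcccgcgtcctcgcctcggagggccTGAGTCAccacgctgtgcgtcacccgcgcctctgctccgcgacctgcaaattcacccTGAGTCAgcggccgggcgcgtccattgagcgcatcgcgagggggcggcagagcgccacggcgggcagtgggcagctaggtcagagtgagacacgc

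In the lists of S phase and mitotic genes no change was larger than 0.46 on the log2 scale. Of 11 tested S phase genes 1 fell and 0 rose, and their changes lay between -0.13 and 0.13. Their median was -0.03, or -0.05 with robust control estimates. The replication clamp Pcna measured 7.95 and 7.84, against 7.76, 7.72 and 7.82 (0.13, adjusted p = 0.098). Among 8 mitotic genes 2 rose and 3 fell, or 62.5% called, against 43.1% of all named genes. Their changes lay between -0.28 and 0.46, with the highest in Anln, of the contractile ring (0.46 ± 0.04), and their median was -0.09, or -0.31 with robust control estimates. Of 7 tested p53 targets 3 fell (42.9%, about the share of all named genes that passed), among them the cell cycle inhibitor Cdkn1a, by 0.29 ± 0.03.

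Some genes crossed the detection limit. Among named genes 74 were detected on both high-dose arrays and on no control, of which 44 passed the threshold. In the other direction 81 were detected on all controls and on neither high-dose array, of which 53 passed. Of all named genes 43.1% passed. Detection on the same arrays picked these genes, so the numbers that passed are no separate support. Chrna1 encodes an acetylcholine receptor subunit known from muscle. It measured 9.48 and 9.63 at the high doses, against 7.20, 7.16 and 7.18 in the controls. It was at least 4.90-fold higher. Prl2c2, proliferin, a prolactin relative with near-identical copies, was at least 1.67-fold higher, Cd53, a tetraspanin, at least 1.51-fold, and Gprc5a at least 1.26-fold. In the other direction Htra3, a secreted protease, was at least 1.53-fold lower, Lpl, lipoprotein lipase, at least 1.38-fold and the netrin receptor gene Unc5c at least 1.28-fold. Leaving out the 13 ng/ml array (adjusted p = 0.078) or the 40 ng/ml array (0.073) ended the call of Htra3.

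The 13 and 40 ng/ml arrays differed by less than any pair of controls. Over all tested probes the median absolute difference between 40 and 13 ng/ml was 0.041 on the log2 scale, against 0.048, 0.048 and 0.057 in the 3 pairs of controls. A difference above 1.2-fold was seen for 2.82% of probes between the 2 doses, against 4.34%, 5.36% and 8.35% between controls. Above 1.5-fold the shares were 0.114%, against 0.18%, 0.327% and 0.694%. No probe differed by 2-fold between the doses. Among the 597 probes that changed more than 2-fold with FGF2, the median absolute difference was 0.088 between the doses, against 0.096, 0.101 and 0.117 between controls. As a share of the change itself the difference between the doses had a median of 5.62%, a 95th percentile of 21.7% and exceeded 50% in 0 probes. These 597 were picked by a large change and by the pooled test, where a difference between the doses counts as spread. Low shares in this set are therefore partly fixed by that choice. Under the other background corrections the control pairs were also wider, and without the detection filter the 2 doses and the closest control pair were level (0.0157 each).

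**Figure D3:**
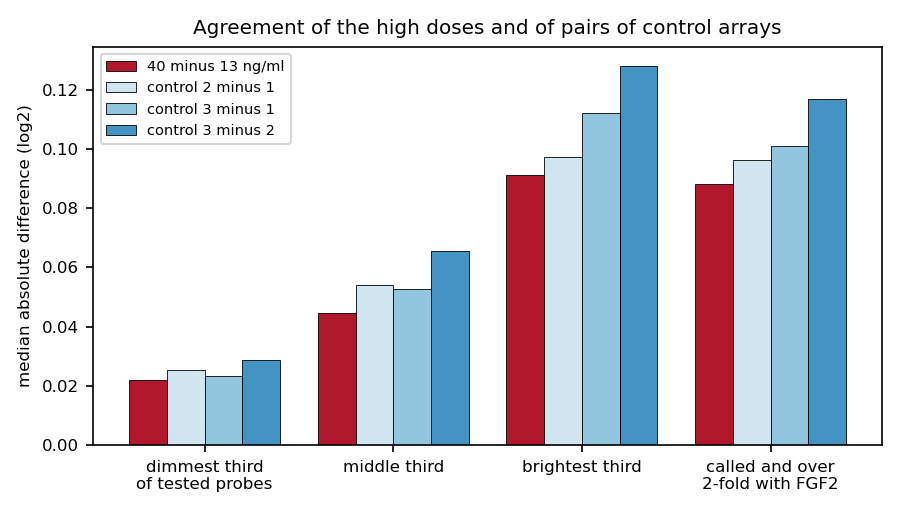
Median absolute log2 difference between 40 and 13 ng/ml (red) and within each pair of control arrays (blue), for tested probes split into 3 equal classes by brightness and for the 597 called probes over 2-fold. The red bar is the lowest of each set of 4, as in the brightest class with 0.091 against 0.097, 0.112 and 0.128. The 597 were picked by a test in which differences between the doses and between controls count as spread.

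Between the 2 doses no call was made. For 40 against 13 ng/ml, 0 of 12246 probes passed in limma (0%), and 453 had an unadjusted p under 0.05. The test has 1 array per dose, which is assumed to vary as the controls do, and the 95% interval of a difference reached a median of 0.177 on either side for all tested probes and 0.304 for those that changed more than 2-fold. It therefore does not show that the doses act alike within less than that. Of the 279 probes that rose more than 2-fold 146 were higher at 40 than at 13 ng/ml (52.3%), where 51.2% of all tested probes were. Of the 318 that fell more than 2-fold 169 were lower at 40 than at 13 ng/ml (53.1%), where 48.8% of all tested probes were. Set singly against the controls, the 13 ng/ml array gave 3047 called probes (24.9%) and the 40 ng/ml array 2943 (24%).

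Gene by gene, several of the strongest responders had differences of 0.26 or less between the doses. The difference between 40 and 13 ng/ml was -0.02 (95% interval -0.30 to 0.26) for Ptn, -0.01 (-0.20 to 0.17) for Itga11, 0.12 (-0.14 to 0.37) for Errfi1 and -0.02 (-0.20 to 0.15) for Spp1. Ptn and Itga11 read close to the detection limit at both doses, where background correction compresses differences, so their intervals say little about the doses. For Gch1 it was 0.26 (-0.04 to 0.56) and for Col1a1 0.16 (-0.20 to 0.52). Intervals that left out 0 before adjustment included those of Socs2, 0.45 (0.29 to 0.61), with the higher level at 40 ng/ml, and of Serpina3g, -0.71 (-0.93 to -0.50), with the lower level at 40 ng/ml. Etv1 (0.21, 0.05 to 0.38) and Chrna1 (0.15, 0.02 to 0.28) stood higher at 40 ng/ml, and Ptgs1 (-0.24, -0.47 to -0.01), Acta2 (-0.19, -0.35 to -0.03) and Pmp22 (-0.36, -0.68 to -0.03) lower. All adjusted p values of these differences were 1, so none is a call. Socs2 and Serpina3g had moved the same way against the controls at both doses, Socs2 higher and Serpina3g lower.

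The largest differences between the doses, apart from Serpina3g and Col3a1, were of genes that had not passed with both doses pooled against the controls. In that comparison a difference between the doses counts as spread, which makes passing harder for such genes. ND5, a mitochondrially encoded subunit of complex I, measured 9.13 at 13 ng/ml and 10.05 at 40 ng/ml, and the controls spanned the same range (9.94, 10.35 and 9.25). Atp5md, of the ATP synthase, measured 9.26 and 8.51, against 8.52, 8.51 and 8.18 (difference -0.75, -1.33 to -0.17). Rpl30 had 10.45 and 9.76, against 9.74, 10.42 and 9.83. In Rpl30, too, the controls differed among themselves as much as the doses did. Vbp1 (-0.65), Chmp5 (-0.62) and ND4L (-0.61) were higher at 13 ng/ml than at 40 ng/ml and on every control, without passing in the pooled comparison. Against the control mean they changed by 0.85, 0.78 and 0.84 at 13 ng/ml and by 0.20, 0.16 and 0.23 at 40 ng/ml. Ndufb4 and Nop53 had differences of -0.62 and -0.58. Col3a1, a chain of fibrillar collagen, measured 10.93 and 10.26, against 12.05, 12.37 and 12.48. It fell by 1.70 ± 0.24 at the high doses, and its difference between them was -0.67 (-1.35 to 0.00).

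**Figure D4:**
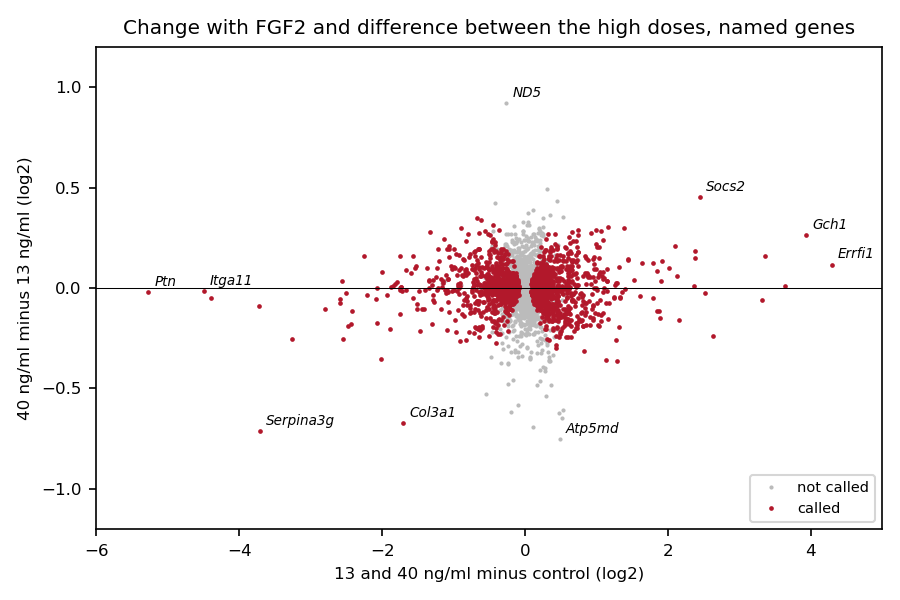
Each named gene is a point, with its log2 change at the high doses against control on the horizontal axis and the log2 difference between 40 and 13 ng/ml on the vertical axis; dark red points passed the threshold against control. The cloud is wide, between -5.27 and 4.29, and flat, with all named genes within 0.92 of 0 on the vertical axis.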

How the data were processed

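Per the file headers, the authors deposited for each array a mean signal intensity per probe on a linear scale and a detection score between 0 and 1. BeadStudio 1.0 is named in the submitters' processing notes. No label or header used here names a background correction or normalisation of these signals, and they were treated as having had neither. The 5 arrays were corrected with the neqc method of limma 3.58.1 (R 4.3.3, offset 16), with control estimates inferred from the detection scores, quantile-normalised and taken to log2. Probes that scored 0.99 or more on 2 or more of the 5 arrays were tested with lmFit and eBayes, two-sided, with Benjamini-Hochberg adjustment and a threshold of 0.05. The number of arrays limits the precision, and p-values measure the spread between these 5 arrays.

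Gene numbers (NCBI) were read out of the probe identifiers, which is an inference: 81.1% and 84.8% of the 2 identifier forms were mouse gene numbers, against 40.9% and 41.3% of shifted numbers. This named 8131 genes through RefSeq (GRCm38.p6). Of a gene's several probes the brightest stood for it. Genes named in the text include the 20 largest rises and falls that passed, were detected on all 5 arrays and had no overlap of the groups. The others are the 10 brightest genes detected on 1 side only, the 10 largest dose differences, and members of gene and marker lists. Members and lists were chosen with earlier results of these data known. A bound ("at least") sets the bright side against the detection limit. Some items, among them 1 gene list, are not reported here. The test was tried on simulated data. Alternatives covered background correction, scaling, filtering, the prior and leaving out each array, and the authors' deposited value table.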

Additional observations from a re-analysis of the deposited data

How the results depend on the processing

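Leaving out the 13 ng/ml array left 2960 probes called (1567 higher, 1393 lower), leaving out the 40 ng/ml array 3090 (1614 higher, 1476 lower), and leaving out a control between 3906 (1991 higher, 1915 lower) and 4578 (2323 higher, 2255 lower). In these fits the lone high-dose array is assumed to vary as the controls do. With robust control estimates 558 probes were higher and 704 lower by over 2-fold. Scaling to the same median shifted the median change to -0.0231, with 1781 probes higher and 2507 lower, so 41.5% of calls were higher, against 52.1%. The median absolute difference between 40 and 13 ng/ml was 0.0836 with normexp without control probes, 0.106 with robust control estimates, 0.0768 without background correction, 0.0354 with an offset of 50, 0.0492 with detection on all 5 arrays and 0.0157 without a filter. In 40 against 13 ng/ml 0 probes were called by limma in each alternative run, and this comparison has no value without either dose's array. Of 2514 comparisons of a named gene with an alternative, 2441 kept direction and side of the threshold, 33 lost a call, 40 gained one and 0 reversed a called direction. Of 149 genes with a value in the authors' deposited table, 147 had the same sign there, and the exceptions, Fosl2 and S100a4, had not passed. Of 924 list counts 815 stayed within 1.5 times. No paired analysis was possible because each dose has 1 array and the control numbers pair nothing. The cause of these shifts was not tested.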
